A study of Mus musculus with 16 samples.

Results

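The 10 cathepsin protease genes Ctsd, Ctss, Ctsb, Ctsl, Ctsz, Ctsh, Ctsa, Ctsc, Ctsf and Ctsk were read from a table of 55404 genes in mouse brain. Each was matched by symbol, and 10 of 10 were found. The set was chosen from results of this same genotype comparison that were already known, in which Ctss and Ctsd stood among the higher genes. The difference between genotypes in the members is therefore given as a description, with a standard error and a 95% confidence interval and no p-value. RNA of whole brain was measured in 8 Tecpr2 ki/ki mice and 8 wt/wt mice, with 1 library for each mouse. Tecpr2 ki/ki mice carry the frameshift allele L1152Yfs on both chromosomes, made with CRISPR/Cas9 in C57BL/6J zygotes. The wt/wt mice carry the normal allele. Every mouse was a male aged 5 months, and no group received a treatment. The allele is constitutive and is thus present in every cell type, and a whole brain sample mixes all regions and cell types.

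Cathepsins are proteases of the endolysosomal system. Most are cysteine proteases of the papain family, whereas cathepsin D is an aspartic protease and cathepsin A is a serine carboxypeptidase. They are made as inactive precursors, reach the lysosome largely through mannose 6-phosphate receptors, and are activated there by cleavage at acid pH. Cystatins and some serpins hold the cysteine members in check. In brain, Ctss, Ctsz, Ctsh and Ctsc are known mainly from microglia, the resident phagocytes, and were taken as the microglia-enriched class. Ctsd, Ctsb, Ctsl, Ctsa and Ctsf are made by neurons and glia alike and were taken as the broadly expressed class. Ctsk, best known from osteoclasts, was placed in neither class.

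Reference promoters of the members are shown first. The sequences are from RefSeq (GRCm38.p6), an earlier build than the one the authors aligned to. A promoter was found for 8 of the 10 members, and Ctsb and Ctsh were not examined. Each window runs from upstream of the annotated transcription start to shortly after it. Capitals mark CACGTG (the E-box core), TCACGTGA (its extension, bound by TFEB and related regulators of lysosomal genes) and GAGGAA (a PU-box, the core bound by the myeloid factor PU.1) on either strand, so that TTCCTC is GAGGAA on the opposite strand. Every TCACGTGA also holds a CACGTG. Ctsd (chr7:142387778-142388077, minus strand) and the second annotated start of Ctsa (chr2:164833523-164833822, plus strand) show the extended E-box, and Ctss (chr3:95526536-95526835, plus strand) and Ctsc (chr7:88277835-88278134, plus strand) show the PU-box.
Ctsd: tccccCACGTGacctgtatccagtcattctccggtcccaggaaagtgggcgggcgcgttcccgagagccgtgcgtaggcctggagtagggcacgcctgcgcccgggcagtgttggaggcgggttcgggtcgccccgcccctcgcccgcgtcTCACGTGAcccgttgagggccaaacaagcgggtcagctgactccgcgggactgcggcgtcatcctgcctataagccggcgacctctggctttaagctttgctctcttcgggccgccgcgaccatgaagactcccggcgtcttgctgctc
Ctsa, second start: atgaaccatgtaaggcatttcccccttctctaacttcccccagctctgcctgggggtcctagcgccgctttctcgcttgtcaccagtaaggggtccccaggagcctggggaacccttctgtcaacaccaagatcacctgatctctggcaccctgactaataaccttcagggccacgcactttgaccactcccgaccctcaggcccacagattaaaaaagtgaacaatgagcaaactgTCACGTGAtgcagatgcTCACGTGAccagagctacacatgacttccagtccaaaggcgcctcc
Ctss: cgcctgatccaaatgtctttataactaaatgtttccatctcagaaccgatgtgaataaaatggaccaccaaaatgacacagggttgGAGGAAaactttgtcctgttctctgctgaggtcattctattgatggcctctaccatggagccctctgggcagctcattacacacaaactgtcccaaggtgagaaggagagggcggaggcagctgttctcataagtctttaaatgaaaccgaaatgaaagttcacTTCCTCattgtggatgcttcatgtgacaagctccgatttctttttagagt
Ctsc: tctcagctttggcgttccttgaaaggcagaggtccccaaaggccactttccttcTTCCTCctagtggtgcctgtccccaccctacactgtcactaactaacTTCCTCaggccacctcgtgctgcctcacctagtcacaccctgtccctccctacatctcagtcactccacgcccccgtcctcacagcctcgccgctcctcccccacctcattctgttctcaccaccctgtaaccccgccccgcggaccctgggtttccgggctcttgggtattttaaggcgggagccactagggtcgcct

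CACGTG was present in 7.15% of 32851 mouse promoters of this length and in 4 members, Ctsd, Ctsl, Ctsa and Ctsf, all of the broadly expressed class. Positions are counted from 1 at the annotated start, with negative numbers upstream. In Ctsd the motif began at -245 and -98, and the latter copy was extended to TCACGTGA. TCACGTGA was present in 0.974% of promoters and, among the members, in Ctsd and Ctsa. The second Ctsa promoter held 2 copies, beginning at -13 and at 5, and its first annotated promoter held none. GAGGAA was present in 28.3% of promoters and in 3 of the 8 members examined, Ctss, Ctsc and Ctsk, of which Ctsk is in neither class. In Ctss it lay at -164 on the same strand and at 1 on the opposite strand. In Ctsc both copies were on the opposite strand, at -196 and -149. TATAAA, the TATA box, was present in 13.6% of promoters and only in Ctss among the members, at -233 on the opposite strand. Ctsz held none of the 4 motifs in its window. These matches describe letters, and binding was not measured. A link between the motifs and the difference between genotypes was not tested.

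**Figure D1:**
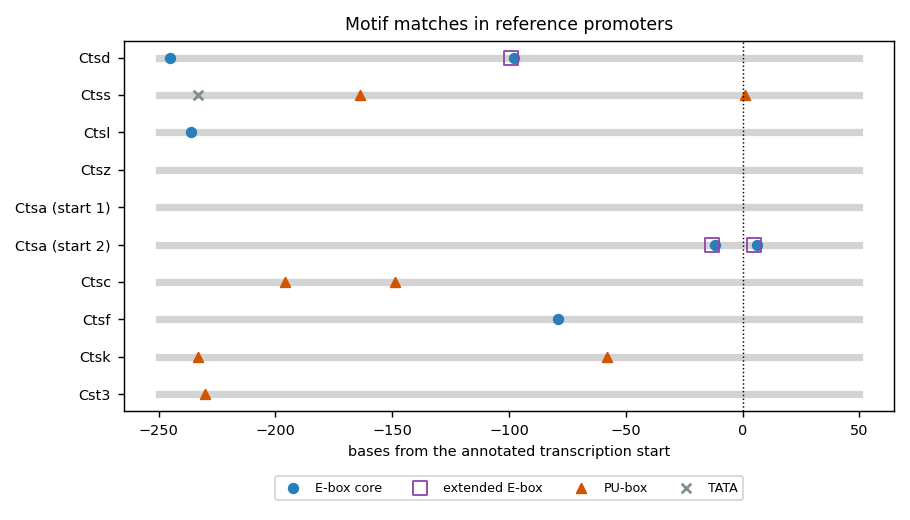
Positions of 4 motifs in the reference promoters of 8 cathepsin genes and of Cst3, in bases from the annotated start (dotted line). Circles mark the E-box core, open squares its extension, triangles the PU-box and crosses the TATA box. E-box matches lie in Ctsd, Ctsl, Ctsa and Ctsf, and PU-box matches in Ctss, Ctsc, Ctsk and Cst3.

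The deposited values are normalized read counts rounded to whole numbers. Their totals were 11964284 to 12157263 in Tecpr2 ki/ki and 12010067 to 12252324 in wt/wt mice, and the reads behind them, estimated from rounding gaps, were 9.23 to 14.26 and 10.09 to 15.39 megareads. No 2 libraries agreed within counting noise. Tecpr2 itself had values of 274 to 320 in Tecpr2 ki/ki and 928 to 1002 in wt/wt mice. A gene was called when limma on log2(value + 1) gave a Benjamini-Hochberg adjusted p under 0.1, and 31 of 23244 tested genes were called (0.133%).

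All 10 members passed the filter on low values and were tested. Ctss and Ctsd were called higher, which is 2 of 10 members. Over all tested genes 0.0946% were called higher. These 2 members were also the ones in which every Tecpr2 ki/ki mouse lay above every wt/wt mouse, a separation seen in 0.0645% of tested genes. The log2 fold change was above 0 in 9 of 10 members and in 49.5% of tested genes. Since the comparison was known when the set was chosen, nothing is read from these counts. The median log2 fold change was 0.06 over the 10 members, 0.05 over the 8 members other than Ctss and Ctsd, and -0.00098 over all tested genes. In bulk tissue, a change in the number of cells of a type and a change in RNA per cell cannot be told apart.

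**Figure D2:**
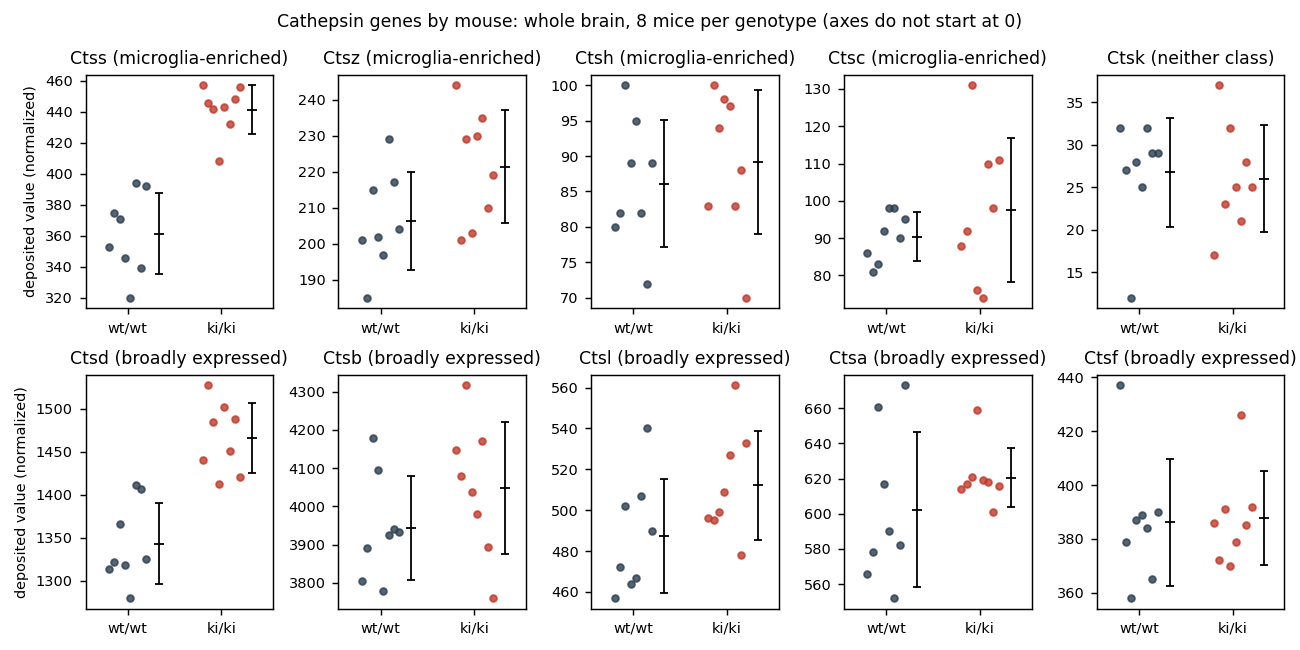
Deposited values of the 10 cathepsin genes in each mouse, wt/wt in dark blue and Tecpr2 ki/ki in red, with the mean and SD of 8 mice beside the points (linear axes that do not start at 0). The genotypes separate in Ctss (320 to 394 against 408 to 457) and Ctsd (1280 to 1411 against 1412 to 1527) and overlap in the other members.

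Among the microglia-enriched members, Ctss, a cysteine protease that stays active at neutral pH and trims the invariant chain for antigen presentation, differed most. Its values in wt/wt mice ran from 320 over a median of 362 to 394. In Tecpr2 ki/ki mice they ran from 408 over 444.5 to 457. The lowest Tecpr2 ki/ki mouse was thus above the highest wt/wt mouse. The means were 441.5 ± 15.7 and 361.25 ± 26.2 (SD, n = 8 each), and the log2 fold change was 0.29 (standard error 0.0432, 95% interval 0.205 to 0.377), or 22.4% more. Ctss lies on chromosome 3 from 95526786 to 95556403 (GRCm38, plus strand). Ctsk is its upstream neighbour on the same strand, 17423 bases away with 0 annotated genes between them.

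Ctsz, the carboxypeptidase cathepsin Z (also called X), had a wider overlap. It ranged from 185 over 203 to 229 in wt/wt and from 201 over 224 to 244 in Tecpr2 ki/ki mice. The Tecpr2 ki/ki values stood above the highest wt/wt mouse in 3 of 8 mice, and the log2 fold change was 0.10 (standard error 0.0563, interval -0.0113 to 0.214). Ctsh, an aminopeptidase, reached 100 in both genotypes, with medians of 91 in Tecpr2 ki/ki and 85.5 in wt/wt mice. The difference came to 0.05 on the log2 scale with an interval from -0.127 to 0.221. At this level of expression, a difference of the size seen in Ctsd lay inside the interval and was not detectable.

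Ctsc encodes dipeptidyl peptidase 1, which activates the granule proteases of immune cells. Values ran from 81 over 91 to 98 in wt/wt mice, and from 74 over 95 to 131 in Tecpr2 ki/ki mice. Tecpr2 ki/ki mice were found both below the lowest and above the highest wt/wt mouse. The coefficient of variation was 19.8% in Tecpr2 ki/ki and 7.27% in wt/wt mice, where counting error alone gives 10.4% and 10.3%. This contrast in spread was noticed in the values and was not tested. The log2 fold change was 0.09 (standard error 0.0907, interval -0.0933 to 0.269), and 0.02 without Tecpr2 ki/ki mouse 3, which held the value of 131.

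Of the broadly expressed members, Ctsd, the main aspartic protease of lysosomes, differed most. In wt/wt mice its values were 1280 at the lowest, 1324 at the median and 1411 at the highest. In Tecpr2 ki/ki mice they were 1412, 1467.5 and 1527. The genotypes did not overlap, but the gap between the nearest mice was 1 unit (1412 against 1411). The log2 fold change was 0.13 (standard error 0.0258, interval 0.0747 to 0.178), or 9.14% more. This interval lies below that of Ctss. Ctsd is on chromosome 7 from 142375911 to 142388038 (minus strand) and shares exon sequence on the same strand with the annotated gene Gm49369, which is listed at 0.

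Ctsb, a cysteine protease with endopeptidase and carboxypeptidase activity, ranged from 3778 over 3929 to 4179 in wt/wt and from 3760 over 4059 to 4316 in Tecpr2 ki/ki mice. This was a log2 fold change of 0.04 (standard error 0.0221, interval -0.0075 to 0.0818). The upper bound lies near the lower bound of Ctsd, so that a rise as large as the Ctsd estimate is outside the interval of Ctsb. The mice of a genotype varied by 3.44% (wt/wt) and 4.27% (Tecpr2 ki/ki), above the counting error of about 1.6%. Ctsl, the closely related endopeptidase, ran from 457 over 481 to 540 and from 478 over 504 to 561, in that order of genotypes. Tecpr2 ki/ki mice stood above the wt/wt median in 7 of 8 cases, and the log2 fold change was 0.07 (interval -0.0067 to 0.151).

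Ctsa, the protective protein that keeps β-galactosidase and neuraminidase stable, had its narrower range in Tecpr2 ki/ki mice. Values ran from 552 over 586 to 673 in wt/wt and from 601 over 617.5 to 659 in Tecpr2 ki/ki mice. All 8 Tecpr2 ki/ki mice were above the wt/wt median, yet 0 of them were above the highest wt/wt mouse. The coefficient of variation was 2.69% in Tecpr2 ki/ki and 7.33% in wt/wt mice, with counting error near 4%. The log2 fold change was 0.05 (interval -0.0279 to 0.12). The exons of Ctsa overlap those of Neurl2 and Pltp on the opposite strand, and the strand setting used in counting is not given in the sources used here. The same limit holds for Ctsb (Fdft1), Ctsz (Nelfcd) and Ctsl (Gm47123), whose exons also overlap a gene on the opposite strand. Ctsl further shares exon sequence with Gm49230 on the same strand.

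Ctsf, a cysteine protease whose human gene is mutated in an adult form of neuronal ceroid lipofuscinosis, had the same median of 385.5 in both genotypes. It ranged from 358 to 437 in wt/wt and from 370 to 426 in Tecpr2 ki/ki mice, with a log2 fold change of 0.01 (standard error 0.0429). Ctsk, the collagen-degrading member, had the lowest values. They ran from 12 over 28.5 to 32 in wt/wt and from 17 over 25 to 37 in Tecpr2 ki/ki mice. The estimate was -0.03 on the log2 scale (standard error 0.165), and its direction turned when single mice were left out.

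The question set for the members was whether the microglia-enriched class differed from the broadly expressed class. The median log2 fold change was 0.09 over the 4 microglia-enriched members and 0.05 over the 5 broadly expressed members, a difference of 0.05 that is given without a test. The difference moved with single mice. It was 0.0187, 0.0277, 0.0288 and 0.0298 without Tecpr2 ki/ki mouse 3, Tecpr2 ki/ki mouse 6, wt/wt mouse 3 and wt/wt mouse 8, and 0.0893 and 0.0776 without Tecpr2 ki/ki mouse 4 and wt/wt mouse 6. Each class held 1 called gene, Ctss or Ctsd. Without these, the medians were 0.09 over Ctsz, Ctsh and Ctsc and 0.04 over Ctsb, Ctsl, Ctsa and Ctsf. The summed values of the microglia-enriched members ran from 710 to 803 in wt/wt and from 785 to 896 in Tecpr2 ki/ki mice. Those of the broadly expressed members ran from 6504 to 7066 and from 6722 to 7311. Both sums overlapped between the genotypes. The largest part of the former was Ctss (means 361.25 in wt/wt and 441.5 in Tecpr2 ki/ki mice). The largest part of the latter was Ctsb (means 3944 and 4048, in that order), so that neither sum speaks for its members alike.

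Markers of microglia are given beside the class. Of 12 homeostatic microglia markers, 11 had a log2 fold change above 0 (median 0.10, highest 0.21), as had 49.5% of all tested genes. By limma 0 were called, while 3 had an unadjusted p under 0.05, as had 6.08% of all tested genes. The list was drawn up with results of these data known, and nothing is read from these counts. Genes of activated microglia, some of which the paper reports as higher in Tecpr2 ki/ki whole brain, are not on this list. P2ry12, the purinergic receptor of resting microglia, had the smallest p of the list (log2 fold change 0.16, adjusted p = 0.459, limma with Benjamini-Hochberg adjustment). Their summed value ran from 2221 over 2259.5 to 2366 in wt/wt and from 2261 over 2389 to 2497 in Tecpr2 ki/ki mice. The estimate for Ctss lay above that of each of the 12 markers, but Ctss was chosen with this comparison known. Its interval (0.205 to 0.377) also overlapped that of P2ry12 (0.0582 to 0.266), and nothing is read from this order. All 12 were detected, and their part in the values of Ctss, Ctsz, Ctsh and Ctsc was not tested. Of 6 markers of perivascular macrophages, which also express cathepsins, 2 were higher, 4 were lower and 0 were called by limma. The 2 at an unadjusted p under 0.05 had opposite signs, with a log2 fold change of 0.27 for Cd163 and -0.76 for Pf4. Pf4 lay near the floor, with values of 3 to 10 in wt/wt and 2 to 5 in Tecpr2 ki/ki mice. The sums of the 6 markers were 141 to 171 in wt/wt and 142 to 165 in Tecpr2 ki/ki mice.

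Within a genotype, the members were set against a microglia score, the mean log2(value + 1) of the 12 markers. The score ran from 6.97 to 7.09 in wt/wt and from 7.07 to 7.19 in Tecpr2 ki/ki mice. For Ctss, Pearson's r was 0.245 in wt/wt (exact permutation p = 0.555, Spearman's rho 0.19, p = 0.665, n = 8) and 0.201 in Tecpr2 ki/ki mice (exact permutation p = 0.657, rho -0.262, p = 0.536, n = 8). For Ctsd, r was 0.479 in wt/wt (exact permutation p = 0.228, rho 0.571, p = 0.151, n = 8) and 0.396 in Tecpr2 ki/ki mice (exact permutation p = 0.329, rho 0.405, p = 0.327, n = 8). The strongest of the 20 relations was Ctsl in wt/wt mice, with r = 0.673 (exact permutation p = 0.0686, n = 8) and rho = 0.714 (exact permutation p = 0.0576, n = 8), which fell to r = 0.16 without the 2 mice farthest from the median score. All tests were two-sided. After adjustment over the 20 relations, each Pearson p was 0.995 and the smallest Spearman p was 0.884. With 8 mice a genotype and this narrow range of scores, no relation was detectable in either class.

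Between genes, levels can be set side by side only per length, here as the value per kilobase of annotated exon. In wt/wt mice Ctsb was highest at a median of 649, followed by Ctsd at 563 and Ctss at 267. Ctsz had 141, Ctsa 124, Ctsf 76.5 and Ctsl 74.1. Ctsh, Ctsk and Ctsc came last at 19.0, 18.8 and 15.7. Ctsb and Ctsd thus made up 33.2% and 29.1% of the summed level of the 10 members, and Ctss 13.5%. Neighbours in this order whose wt/wt ranges overlapped were Ctsz and Ctsa, Ctsf and Ctsl, Ctsh and Ctsk, and Ctsk and Ctsc. In Tecpr2 ki/ki mice the ranges of Ctsb and Ctsd overlapped as well (621 to 713 and 601 to 650 per kilobase). The order depends on the length used. With the longest annotated transcript in place of all exons, Ctsf moved up to rank 4, Ctsz down to rank 6, and Ctsc passed Ctsk.

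**Figure D3:**
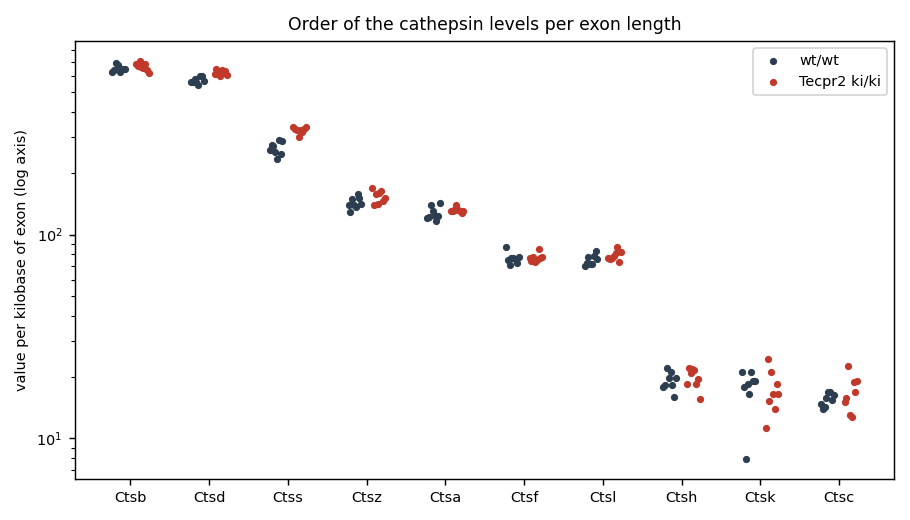
Value per kilobase of annotated exon of the 10 cathepsin genes in each mouse (log axis), in the order of their wt/wt medians, with wt/wt in dark blue and Tecpr2 ki/ki in red. Ctsb and Ctsd lead at 649 and 563, and Ctsh, Ctsk and Ctsc lie at 19.0 or less.

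Of 15 further genes of the cathepsin family, 3 had enough signal to be tested (Ctso, Ctsw and Tinagl1), and 0 were called or reached an unadjusted p under 0.05 in limma. Ctso, a cysteine protease of the same family, ran from 211 to 267 in wt/wt and from 227 to 256 in Tecpr2 ki/ki mice (log2 fold change 0.01, limma with Benjamini-Hochberg adjusted p = 0.986). The other 12 did not exceed a value of 2 in any mouse. Of these, 9 were listed at 0 in all 16 mice, Cts7 and the other placental cathepsins of the mouse among them.

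Of 12 genes for cathepsin inhibitors, 8 were tested and 1 was called, where 0.133% of all tested genes were called. Of the 8, 6 were higher and 2 were lower, where 49.5% of all tested genes were higher. This list too was drawn up with results of these data known, and nothing is read from these counts. The called gene was Cst3, which encodes cystatin C, an abundant secreted inhibitor of cysteine cathepsins. Its values ran from 3146 over 3559 to 3654 in wt/wt and from 3649 over 3838.5 to 4053 in Tecpr2 ki/ki mice. In 7 of 8 Tecpr2 ki/ki mice Cst3 lay above every wt/wt mouse, and mouse 8, at 3649, lay just inside the wt/wt range. It rose by a log2 fold change of 0.13 (standard error 0.0242, adjusted p = 0.00605, limma with Benjamini-Hochberg adjustment). The estimate for Cst3 was close in size to that for Ctsd, an aspartic protease that cystatins do not inhibit. The reference promoter of Cst3 held 1 PU-box, at -230, and no E-box core.

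Astrocytes are a known source of cystatin C, and 3 of 6 astrocyte markers were called higher in the same fit, as were 0.0946% of all tested genes. These were Gfap (log2 fold change 0.58), Aqp4 (0.14) and Slc1a2 (0.06). The other 3, Aldh1l1 (0.04), Slc1a3 (0.03) and Gja1 (-0.005), were not called. The list was drawn up with results of these data known, and the paper reports Gfap as higher in this comparison. Nothing is read from the count of astrocyte markers called. The summed value of the 6 markers ran from 53180 to 56694 in wt/wt and from 56783 to 59109 in Tecpr2 ki/ki mice. Most of each sum was Slc1a2 (means 43648 and 45610, in that order), so that the sum does not speak for the 6 markers alike. The part of astrocytes in the values of Cst3 and of the broadly expressed cathepsins was not tested.

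Cst7, which encodes cystatin F, a lysosomal inhibitor made by activated microglia and acting on cathepsin C, had values of 5 to 11 in wt/wt and 8 to 21 in Tecpr2 ki/ki mice. In 4 of 8 Tecpr2 ki/ki mice it exceeded the highest wt/wt mouse. The estimate of 0.65 on the log2 scale (standard error 0.239) did not pass adjustment in limma (adjusted p = 0.603). Serpina3n, a serpin of reactive astrocytes, had values of 97 to 134 and 121 to 148 (log2 fold change 0.23, standard error 0.0734, adjusted p = 0.436 in limma). Cstb, cystatin B, the cytosolic inhibitor, had a log2 fold change of 0.05 and overlapping ranges (74 to 101 and 68 to 123).

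**Figure D4:**
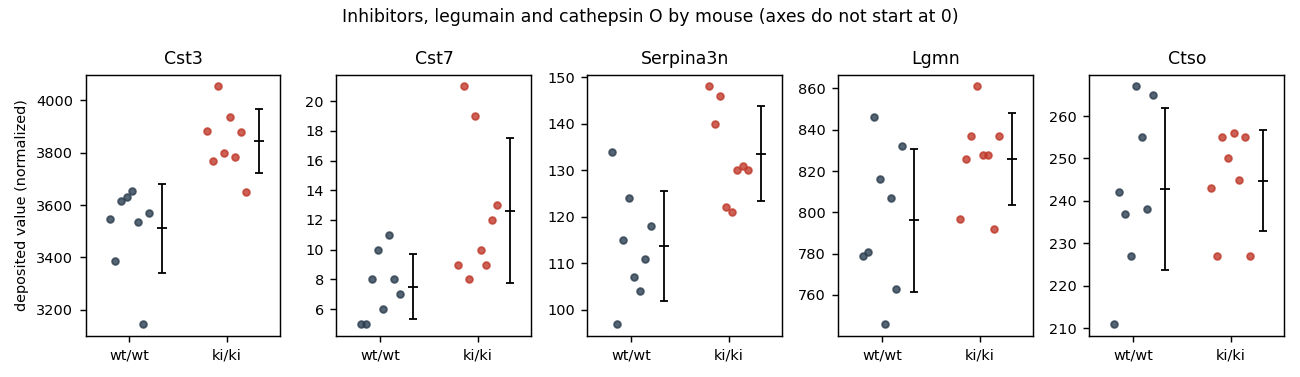
Deposited values of the inhibitor genes Cst3, Cst7 and Serpina3n, of Lgmn (legumain) and of Ctso in each mouse, with the mean and SD of 8 mice (linear axes that do not start at 0). Cst3 lies above every wt/wt mouse in 7 of 8 Tecpr2 ki/ki mice, and Ctso overlaps fully (211 to 267 against 227 to 256).

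Genes that sort and activate cathepsins were listed together with lysosomal membrane proteins, partners of cathepsin A and regulators of lysosomal genes. This mixed list was split in direction. Of 17 listed, 8 were higher and 9 were lower, the median log2 fold change was -0.01, and 0 were called or reached an unadjusted p under 0.05 in limma. Lgmn encodes legumain, the endopeptidase that processes several cathepsin precursors. It ran from 746 over 794 to 846 in wt/wt and from 792 over 828 to 861 in Tecpr2 ki/ki mice (log2 fold change 0.05, limma with Benjamini-Hochberg adjusted p = 0.877). Psap, the prosaposin that travels with procathepsin D, had a log2 fold change of 0.03 (standard error 0.027). The mannose 6-phosphate receptor gene Igf2r had 0.01 (standard error 0.0295), and M6pr had -0.02 (standard error 0.0331). Tfeb, Tfe3 and Mitf, the regulators that bind the extended E-box, had log2 fold changes of -0.04, -0.02 and -0.02. The partners of cathepsin A, Neu1 and Glb1, had 0.02 and -0.01.

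Of 5 other lysosomal peptidases, 4 were higher and 1 was lower, where 49.5% of all tested genes were higher. In limma, 0 of the 5 were called and 0 had an unadjusted p under 0.05. Prcp, a serine carboxypeptidase, had the largest estimate (log2 fold change 0.14, standard error 0.0704, adjusted p = 0.821). Tpp1, tripeptidyl peptidase 1, whose loss causes a childhood ceroid lipofuscinosis in humans, had 0.07 (standard error 0.0351, adjusted p = 0.839).

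**Figure D5:**
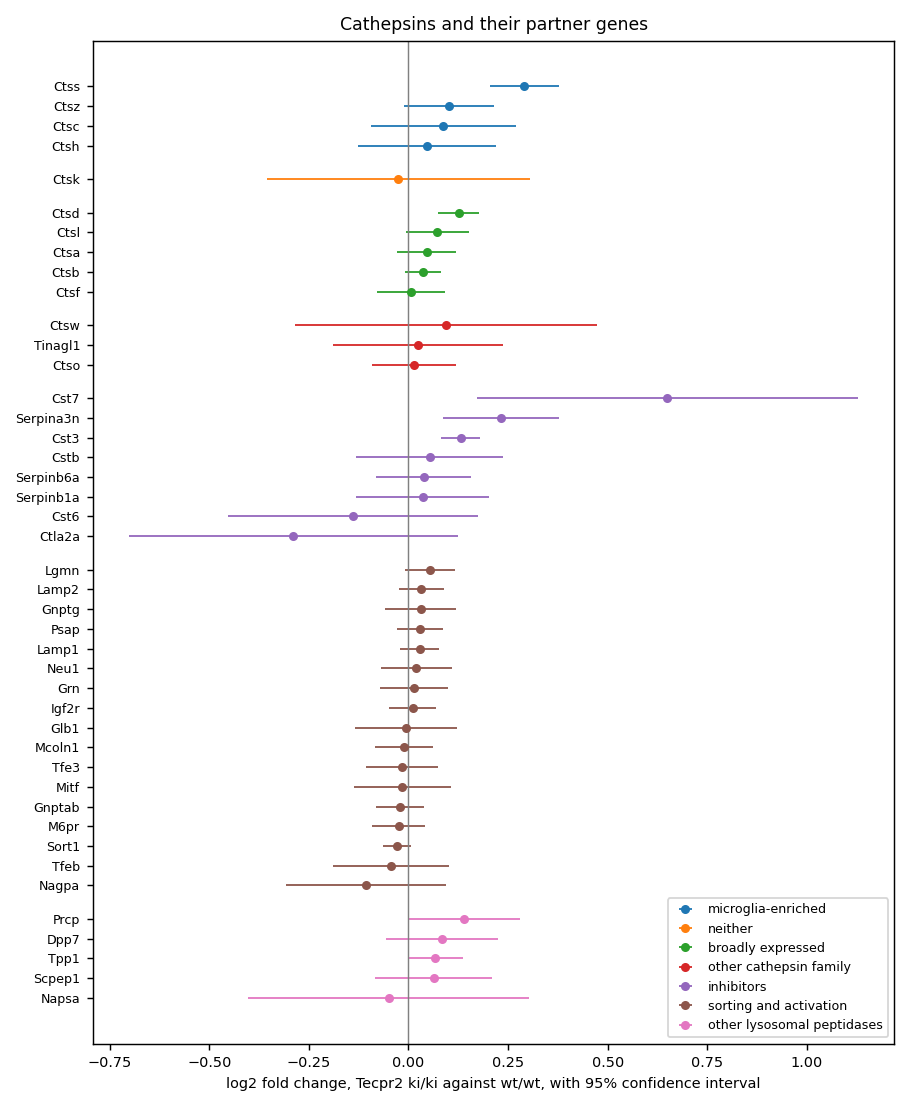
Log2 fold change of Tecpr2 ki/ki against wt/wt mice with its 95% confidence interval for the 10 cathepsin genes, other cathepsin-family genes, inhibitors, sorting and activation genes and other lysosomal peptidases. The intervals of Ctss (0.205 to 0.377) and Ctsd (0.0747 to 0.178) lie above 0. The list labelled sorting and activation, which also holds lysosomal membrane proteins and regulators, lies around 0 with a median of -0.01.

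Markers of other cell types in the sample gave 0 calls in limma. These were oligodendrocytes (6 markers), neurons (6), endothelial cells (5), choroid plexus (4) and meningeal fibroblasts (4). Lower values were found in 5 of 6 neuronal and 3 of 4 choroid plexus markers. Those with an unadjusted p under 0.05 were Syt1 of the neuronal list (log2 fold change -0.03) and Ttr and Folr1 of the choroid plexus list (-0.09 and -0.31). All listed markers were detected.

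Finally, likeness between genes was measured without the genotype difference, as Pearson's r over the 16 mice after the genotype means of log2(value + 1) were subtracted. Points share libraries and depth, and no p is given. The genes listed have the highest of 13699 correlations over 16 mice. Picking the highest inflates such values, and no link between genes is read from them. Among 13699 genes, those most like Ctss were Rpl27-ps3 (0.904), Gm11518 (0.841), Mrpl43 (0.823), Fkbp4 (0.799) and Tef (0.79). The names of Rpl27-ps3 and Gm11518 mark a pseudogene and a predicted gene, whose reads may be shared with near-identical copies. Those most like Ctsd were Rps6 (0.817), Gipc1 (0.8), Lrrc8b (0.767), Pdgfrb (0.755) and Chchd5 (0.748). Another cathepsin was in neither list. Ctss and Ctsd themselves had r = 0.376, which ranked Ctsd 1318 among the genes like Ctss. Ctsd stood nearest to Ctss, Ctsz (0.367) and Ctsl (0.362) among the members and farthest from Ctsf (-0.384). Ctss stood nearest to Ctsd and Ctsz (0.289).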

How the data were processed

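Stranded libraries of whole brain total RNA, depleted of ribosomal RNA, were made from 8 mice of each genotype (Tecpr2 ki/ki, wt/wt), with groups taken from the labels. According to the study's methods and the submitters' processing notes, reads were trimmed with Trim Galore 0.6.10 and cutadapt 3.4, aligned with STAR 2.7.10b to GRCm39 and counted per gene, and DESeq2 1.40.2 was used by the authors. The deposited value is a score per gene and mouse, a normalized count rounded to a whole number, whose scaling and strand setting are not given in the sources used here. The authors' tables for each of the 16 mice were identical to the joint table. Rounding limits precision at low values, and intervals from implied reads cover counting error only.

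Symbols were taken by Ensembl identifier from a reference list of gene names, and 52017 of 55404 genes had a symbol. Exon lengths and positions were taken from GENCODE M21 (GRCm38) by Ensembl identifier. Genes with a sum above 16 and a value above 5 in at least 4 mice of a genotype were tested. A model with genotype alone was fitted to log2(value + 1) by limma 3.58.1 (R 4.3.3), using eBayes with robust and trended variance, and p-values were adjusted by Benjamini-Hochberg over 23244 genes. The limma step was tested on simulated data. Correlations used exact two-sided permutation tests over all orders of the mice of a genotype, computed with numpy 2.4.6. Ranks and the adjustment came from scipy 1.17.1. Each library is 1 mouse. The limma p-values set the genotype difference against the variation between mice, and the permutation p-values concern relations over the mice of 1 genotype.

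The members and gene lists were chosen with earlier results of these data known. The genes named are the members, Tecpr2, list genes with an unadjusted p under 0.01, marker genes called, the 5 genes most like Ctss and Ctsd, and Ctso, Cts7, Cst3, Cst7 and Lgmn. Psap, Igf2r, M6pr, Tfeb, Tfe3, Mitf, Neu1, Glb1, Cstb, Prcp, Tpp1, P2ry12, Cd163, Pf4, Syt1, Ttr, Folr1, Aldh1l1, Slc1a3, Gja1, Ctsw and Tinagl1 were added after their values were seen. Alternatives were another pseudocount, no filter, 2 other scalings, eBayes without robust variance, a replicate block, each mouse left out in turn, another transcript length and, for correlations, equal totals or fewer mice.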

Additional observations from a re-analysis of the deposited data

Results flagged for a closer look

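In 4 of 32 groups of 8 mice examined, Dixon's test at the 95% level set 1 mouse apart from the others of its genotype, and chance alone marks about 1 in 20 groups. Ctsa was 659 in Tecpr2 ki/ki mouse 4, where the next highest was 621, and its log2 fold change was 0.03 without that mouse (0.05 with it). Ctsf was 426 in Tecpr2 ki/ki mouse 6, and 437 in wt/wt mouse 1, where the next highest was 390. Without the former its log2 fold change was -0.01, and without the latter it was 0.03. Ctsk was 12 in wt/wt mouse 3, where the next lowest was 25, and its log2 fold change was -0.17 without that mouse (-0.03 with it). Ctss and Ctsd had no such mouse.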

How the results depend on the processing

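With 1 mouse left out, the log2 fold change of Ctss ran from 0.27 to 0.31 and that of Ctsd from 0.12 to 0.14, values of the comparison that chose them. Cst3 was called in 16 of 16 such fits (0.11 to 0.14) and in 6 of 6 other fits. The difference between the class medians ran from 0.0187 to 0.0893. Leaving out 1 mouse moved Ctsf between -0.0130 and 0.0324, Ctsk between -0.175 and 0.0533 and Ctso between -0.0140 and 0.0343, each across 0. It moved Ctsc from 0.02 (without Tecpr2 ki/ki mouse 3) to 0.14 and Ctsh from 0.01 (without wt/wt mouse 7) to 0.09. Over all genes, 20 were called with no filter on low values, where more genes were tested, against 31. With a replicate block, 46 were called, and the log2 fold changes of Ctss and Ctsd stayed 0.29 and 0.13. The replicate block changed no call among the genes printed here. The labels give the same replicate numbers in both genotypes, but same-numbered mice share only a number: the correlations of their deviations ran from -0.04 to 0.151, were above 0.1 in 1 of 8 pairs, and 3 of 8 mice correlated best with their own number. Without the 2 mice farthest from the median score, correlations with the microglia score turned sign in Tecpr2 ki/ki mice for Ctsb (-0.55), Ctsl (-0.0469), Ctsz (-0.379) and Ctsa (-0.422) and in wt/wt mice for Ctsz (-0.0825), Ctsa (-0.189) and Ctsf (0.563). With equal totals they turned in Tecpr2 ki/ki mice for Ctsz (-0.0178) and Ctsa (-0.0608) and in wt/wt mice for Ctsa (-0.0473). The cause was not tested. By longest transcript Ctsf ranked 4, Ctsz 6, Ctsc 9 and Ctsk 10. The scalings moved the median of all genes by less than 0.01 on the log2 scale. Depth limits Ctsk, Ctsc and Ctsh most, where counting error is about 10% or more per mouse.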
